A study of Mus musculus with 3 samples.

Results

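Potassium channel subunits were taken as the genes whose platform symbol starts with Kcn, 75 genes with 108 probes among 29899 features (gene symbols, and probes without a symbol) of a mouse cortex array. Each of 3 two-colour arrays set RNA of Snf2l-Ex6DEL cortices against RNA of wild-type cortices. Both genotypes had the 129Sv background and both were dissected at E15.5 (embryonic day). Snf2l, now Smarca1, encodes a chromatin remodelling ATPase of the ISWI type, and the mutant lacks its exon 6. Each genotype had 2 RNA samples. A first mutant and wild-type RNA were hybridised on replicate 1 and, with exchanged dyes, again on replicate 2 (pair 1), and a second mutant and wild-type RNA on replicate 3 (pair 2), so that n = 2 pairs. The labels do not say whether a sample was 1 embryo, a litter or a pool. The limma p-values and SE rest on the spread between these pairs, moderated towards a spread pooled over all features. Where the pairs nearly coincide, as for Kcnab2 (-0.61 and -0.68, SE 0.22), the SE comes mostly from that pooled spread. All values are log2 ratios read as mutant over wild type. That direction is likely, from the study's naming of mutant versus wild type, but is not stated, and every sign would turn if the ratio ran the other way.

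Potassium channels let potassium leave the cell and so set the resting potential and end the action potential. Voltage-gated (Kv), ether-a-go-go, M-current, inward rectifier, tandem-pore leak and calcium-activated families differ in what opens them, and auxiliary subunits change their gating and their transport to the membrane. In the embryonic cortex these channels act in progenitors and in newborn neurons, and several belong mainly to glia, vessels, muscle or blood cells.

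On each array many spots shared a single value, 0.009, 0 and 0.001 on replicates 1, 2 and 3, which was read as no measurement. Such spots were kept at that value in gene averages, medians and the test, and genes called measured on an array are those with a value other than it. Leaving these spots out was an alternative, under which 2 Kcn genes (Kcnh7 and Kcnk5) in place of 0 passed 1.5-fold on all arrays. Of the Kcn probes 7, 16 and 23 of 108 stood at it (6.48%, 14.8% and 21.3%), against 11.7%, 16.6% and 21.9% of all probes. The probe for the targeted gene Smarca1 read -0.02, 0.36 and 3.11. Its place relative to exon 6 is not known from the files, so it checks nothing about the labels. Markers of other tissues differed strongly in pair 1: all 14 of 14 skeletal muscle markers were below 0 on both of its arrays, with list medians of -5.84 and -5.74, against 0.33 on replicate 3. Likewise 8 of 8 meningeal and fibroblast markers were below 0 on both arrays of pair 1 (medians -3.54 and -3.36, against 1.47 on replicate 3). Of 9 measured cortical neuron markers 7 were above 0 on both (medians 2.08 and 2.12, against 0.16). A log2 ratio holds no level, so that the markers cannot show which cells either sample held. In such bulk samples fewer cells of a type and less RNA per cell cannot be told apart. The part of these tissues in the Kcn values below was not tested.

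No Kcn gene passed the test of mutant against wild-type cortex over both pairs. With limma's moderated test and Benjamini-Hochberg adjustment over all features, 0 of 75 Kcn genes had an adjusted p under 0.05, and over all 29899 features the share was also 0%. The lowest adjusted p of a Kcn gene was 0.852. At an unadjusted p under 0.05 limma called 0 Kcn genes, against 2.55% of all features. With 2 pairs an exact permutation test could not go below p = 0.5.

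By size alone, 0 of 75 Kcn genes lay at least 1.5-fold from 1 (a log2 ratio of at least 0.58 either way) in the same direction on all 3 arrays. Of all features 2.96% did, with 1.17% higher and 1.78% lower in the mutant. On both arrays of pair 1, 15 Kcn genes (20%) passed that fold the same way, against 14.8% of all features. Of these 6 were higher (8%, against 5.7%) and 9 lower (12%, against 9.12%). On replicate 3, 18 Kcn genes passed it as higher (24%, against 19.8%) and 11 as lower (14.7%, against 22.6%). The members' shares on pair 1 were near the background, and no test was made of the gaps on replicate 3.

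**Figure D1:**
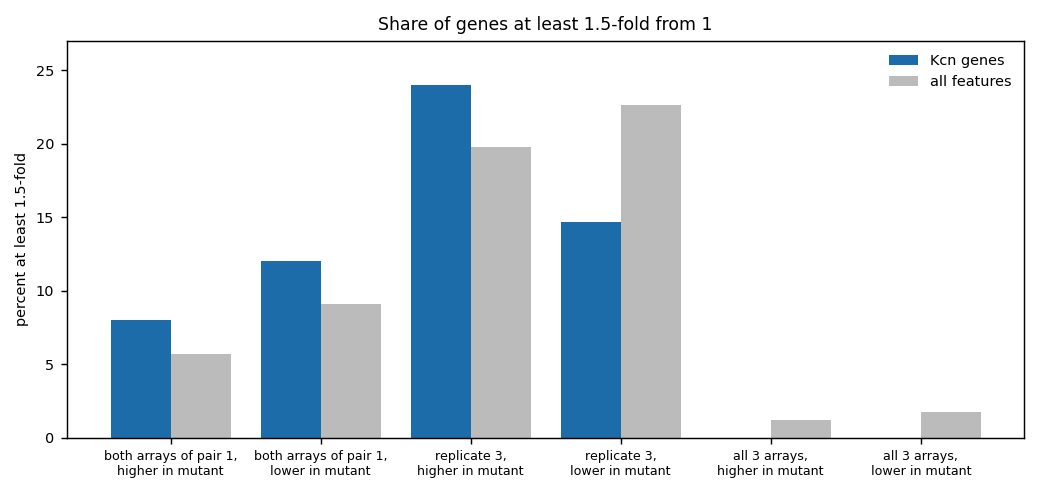
Percent of Kcn genes (blue, of 75) and of all features (grey, of 29899) at least 1.5-fold from 1, by array set and direction in the mutant. The bars for all 3 arrays are at 0 for Kcn genes, and on replicate 3 the blue bar is the taller one for higher genes (24% against 19.8%) and the shorter one for lower genes (14.7% against 22.6%).

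A common sign on all 3 arrays, with no array at its most frequent value, was found for 9 Kcn genes above 0 (12%, against 8.7% of all features) and for 9 below 0 (12%, against 9.64%). At the most frequent value of at least 1 array were 19 of the 75 (25.3%, against 33.6%). The median Kcn log2 ratio was -0.33 on replicate 1, 0.02 on replicate 2 and 0.001 on replicate 3, against 0.009, 0 and 0.001 for all features. Measured values below 0 outnumbered those above on replicate 1 (46 against 27) but not on replicate 2 (27 against 38), which held the same RNAs. The median over the pairs was -0.00675 for Kcn genes and -0.03 for all features. The 75 genes thus had no shift common to all arrays, and each subfamily is given array by array below.

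**Figure D2:**
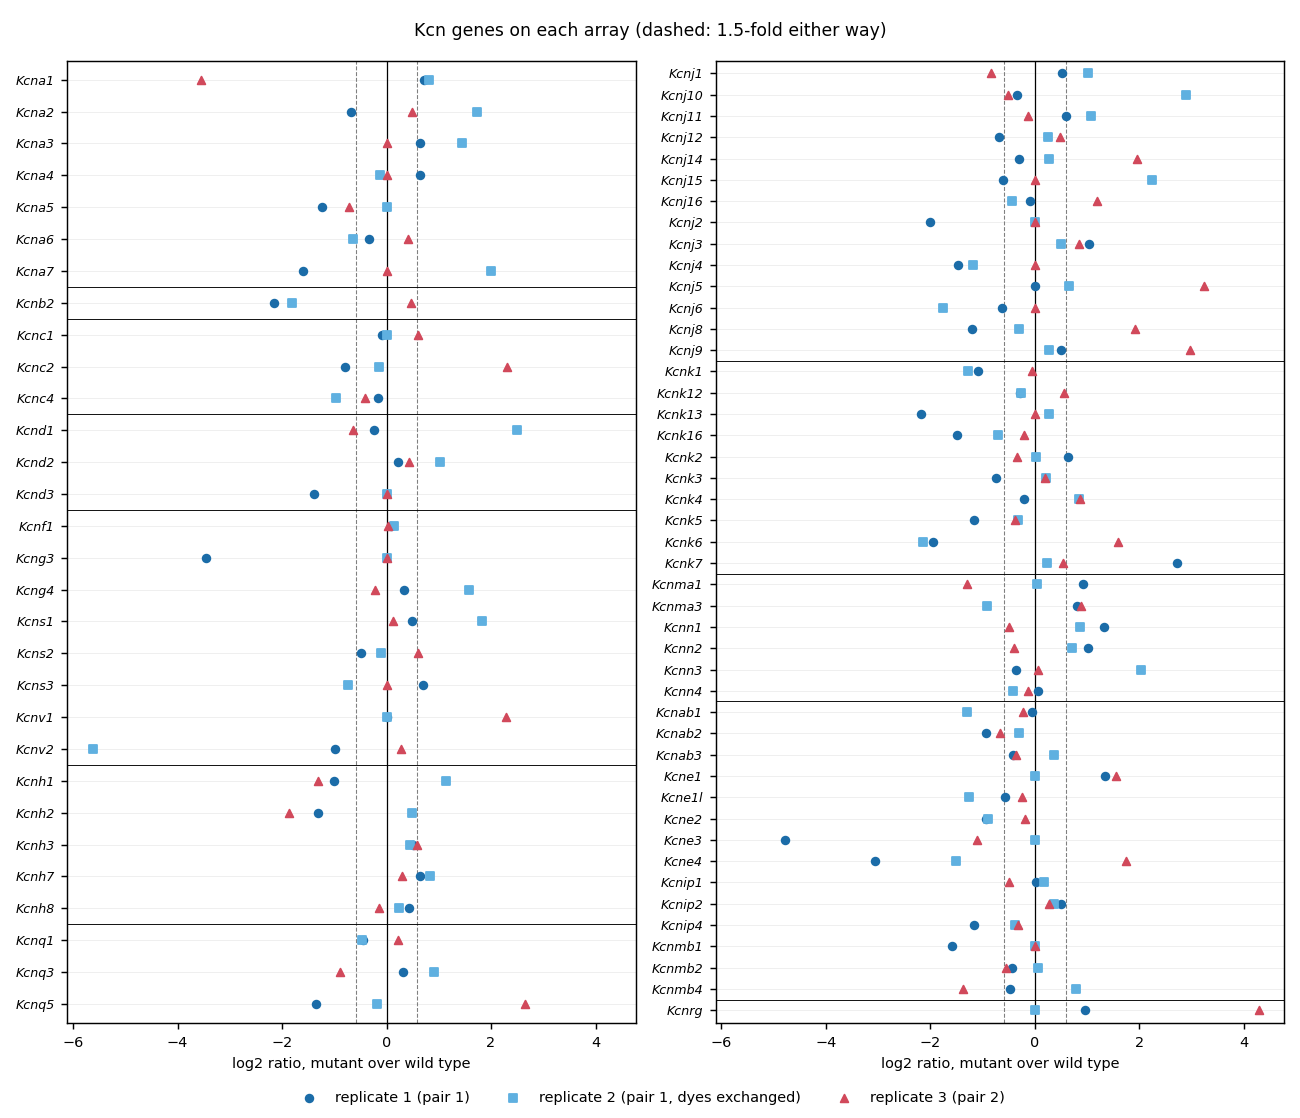
Log2 ratio (mutant over wild type, horizontal axis) of each of the 75 Kcn genes on replicate 1 (dark circles), replicate 2 (light squares) and replicate 3 (red triangles), grouped by subfamily between solid lines; dashed lines mark 1.5-fold. No row has all 3 symbols beyond the same dashed line, and Kcna1, Kcne4 and Kcnk6 have both pair 1 symbols beyond one line and the triangle beyond the other.

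Among the 7 shaker-type Kcna genes, whose channels sit on axons and limit firing, the medians were -0.33, 0.82 and 0.001, or -0.33, 1.13 and -0.15 over the 7, 6 and 4 genes measured. Kcna1, which shapes the action potential in axons, read 0.72 and 0.82 on the arrays of pair 1 but -3.55 on replicate 3, the lowest Kcn gene value on that array. The pairs thus disagreed in sign, and they averaged -1.39 ± 1.51 (± is the moderated SE from limma here and below, n = 2 pairs, adjusted p = 0.852). Kcna3, known from lymphocytes and microglia as well as neurons, read 0.63 and 1.45 in pair 1 and was at the most frequent value on replicate 3. Kcna2, the usual partner of Kcna1 in axons, read -0.69, 1.73 and 0.49, so that the dye-exchanged arrays of the same RNAs differed in sign. Kcna7 showed the widest such gap of the group, with -1.60 on replicate 1 and 2.00 on replicate 2. Kcna6 was below 0 in pair 1 (-0.33 and -0.64) and at 0.41 on replicate 3, and both of its probes kept that sign on each array. Kcna5, a channel of heart and smooth muscle, read -1.23 on replicate 1, the most frequent value on replicate 2 and -0.71 on replicate 3, and Kcna4 read 0.64 and -0.13 in pair 1 with the most frequent value on replicate 3.

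The Kcnb, Kcnc and Kcnd genes carry delayed rectifier, fast-spiking and A-type currents. Kcnb2, a delayed rectifier of cell bodies, was lower in both arrays of pair 1 (-2.15 and -1.81) and at 0.47 on replicate 3. Of the Kcnc genes, Kcnc4 was below 0 on all arrays as a gene average (-0.16, -0.97 and -0.41). Its 2 probes had opposite signs on replicate 1 (0.285 and -0.603). Kcnc1, the channel that lets interneurons fire fast, read -0.09 on replicate 1, 0 (the most frequent value) on replicate 2 and 0.60 on replicate 3. Kcnc2 read -0.79 and -0.15 in pair 1 and 2.30 on replicate 3, so that only Kcnc4 of these 3 genes had a common sign, as an average. Kcnd2, the pore of the dendritic A-type current, was above 0 on all arrays (0.22, 1.03 and 0.42, mean 0.52 ± 0.23, adjusted p = 0.852 by limma). Its 2 probes did not share a sign on replicates 1 and 3. Kcnd1 was high only with the dyes exchanged (-0.24, 2.49 and -0.64), and Kcnd3 had a measured value on replicate 1 alone (-1.40).

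The 8 silent Kv subunits (Kcnf, Kcng, Kcns and Kcnv) form no channel alone and modify the Kcnb channels. Their medians were 0.05, 0 and 0.08, or 0.09, 0.01 and 0.20 over the 7, 6 and 6 genes measured. Kcnv2, known from photoreceptors, had the lowest Kcn gene value of replicate 2, -5.61, while replicate 1 with the same RNAs read -0.99 and replicate 3 read 0.28. Kcns1 was above 0 on all arrays (0.49, 1.82 and 0.13), and so was the Kcnf1 average, close to 0 throughout (0.09, 0.14 and 0.03). The 2 Kcnf1 probes had opposite signs on replicate 2 (-0.138 and 0.408), and 1 was at the most frequent value on replicate 3. Kcng3 read -3.46 on replicate 1 and stood at the most frequent value on both other arrays, so that its low value rests on 1 array. Kcnv1 was the reverse case, with 2.28 on replicate 3 and the most frequent value on both arrays of pair 1. Kcng4 (0.33, 1.58 and -0.22), Kcns2 (-0.49, -0.11 and 0.60) and Kcns3 (0.70, -0.74 and the most frequent value) had no common sign.

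The ether-a-go-go family (Kcnh, 5 genes) holds slowly gating channels that set the threshold for firing. All 5 were above 0 on replicate 2 (median 0.49), 3 of 5 on replicate 1 (median 0.42) and 2 of 5 on replicate 3 (median -0.15). Kcnh3, a forebrain member, gave close values on all arrays: 0.50, 0.45 and 0.59 (mean 0.53 ± 0.22, adjusted p = 0.852 by limma). Kcnh7 read 0.65, 0.83 and 0.29, but its 2 probes differed by 2.87 on replicate 1, and on replicates 2 and 3 one probe stood at the most frequent value. Without those spots it read 0.65, 1.65 and 0.59, past 1.5-fold on all arrays, and its mean was 0.87 in place of 0.52. Kcnh2, best known for cardiac repolarisation, read -1.31 and -1.87 on replicates 1 and 3, which share a dye orientation, and 0.49 on replicate 2 with the dyes exchanged. Kcnh1 averaged -1.01, 1.14 and -1.32, but neither of its probes had that order of signs (-2.86, 1.83 and 0.26 for the first, 0.85, 0.45 and -2.91 for the second). Kcnh8 read 0.42, 0.23 and -0.15. For Kcnh2, with 1 probe, the sign went with the dye orientation. With a dye term in limma, 0 Kcn genes had an adjusted p under 0.05 for mutant against wild type, and 6 had an unadjusted p under 0.05. The dye term itself was not tested. Replicate 2 was the only array with exchanged dyes, so that dye orientation and that array cannot be told apart.

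Of the 3 measured Kcnq genes, Kcnq3 and Kcnq5 carry the M-current that restrains repetitive firing, and Kcnq1 acts mainly in heart and epithelia. Kcnq3 read 0.31 and 0.90 in pair 1 and -0.89 on replicate 3. Kcnq5 ran the other way, with -1.34 and -0.19 in pair 1 and 2.65 on replicate 3. Kcnq1, averaged over 5 probes, read -0.45, -0.47 and 0.23, and its probes spanned 2.69, 3.24 and 2.74 log2 units on the 3 arrays. No Kcnq gene kept a sign across the pairs.

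The 14 inward rectifiers (Kcnj) pass potassium near the resting potential. Their medians were -0.33, 0.27 and 0.24, or -0.35, 0.28 and 1.02 over the 13, 13 and 10 genes measured. On replicate 3, 6 of 14 passed 1.5-fold as higher (19.8% of all features did) and 1 as lower (22.6%). The G protein-gated members Kcnj3, Kcnj5, Kcnj6 and Kcnj9 slow firing when inhibitory receptors are active. Kcnj3, a pore subunit of most such neuronal channels, read 1.03, 0.50 and 0.85 (2.05-, 1.41- and 1.80-fold) and had the lowest unadjusted limma p of all Kcn genes (0.0625, adjusted p = 0.852). Its mean was 0.81 ± 0.22 (moderated SE, n = 2 pairs). One of its 2 probes was below 0 on replicate 2, where the probes differed by 1.84. Kcnj9 was above 0 on all arrays (0.50, 0.28 and 2.96), and Kcnj5 was at the most frequent value on replicate 1, at 0.64 on replicate 2 and at 3.23 on replicate 3. Kcnj6 went the other way in pair 1 (-0.62 and -1.77) and was at the most frequent value on replicate 3. The 4 genes of this channel type thus shared no direction in pair 1.

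The pore subunits of ATP-sensitive channels were Kcnj11 and Kcnj8, which tie excitability to metabolism in neurons and in vessel walls. Kcnj11 read 0.59 and 1.06 in pair 1 and -0.13 on replicate 3. Kcnj8, found mainly in pericytes and smooth muscle, read -1.20 and -0.30 in pair 1 and 1.91 on replicate 3. Their regulatory subunits are the sulfonylurea receptors Abcc8 and Abcc9. Abcc8, the usual partner of Kcnj11, was above 0 throughout (0.53, 0.28 and 1.99), whereas Abcc9, the usual partner of Kcnj8, was below 0 (-0.01, -0.12 and -1.47). On replicate 3 each pore and its usual partner had opposite signs. The pericyte and smooth muscle markers, a list of 6 genes that includes Abcc9 itself, had medians of -0.18, -0.26 and -0.01.

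The classical strong rectifiers Kcnj2 and Kcnj4 set the resting potential of muscle and of neurons. Kcnj4 was lower on both arrays of pair 1 (-1.47 and -1.18) and Kcnj2 read -2.00 on replicate 1. Both were at the most frequent value on replicate 3, and Kcnj2 also on replicate 2, so that neither had a value in the other pair. Kcnj10, the main potassium channel of astrocytes, read -0.35, 2.89 and -0.52, high only with the dyes exchanged. Its partner Kcnj16 read -0.10, -0.43 and 1.19. The remaining members (Kcnj1, Kcnj12, Kcnj14 and Kcnj15) all had values of both signs or at the most frequent value.

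The 10 tandem-pore leak channels (Kcnk) hold the resting potential negative. On replicate 1, 8 of 10 were below 0 (median -0.91), on replicate 2 it was 5 of 10 (median -0.13) and on replicate 3 it was 4 of 9 measured (median 0.20 over these, 0.10 over all 10). In all, 3 passed 1.5-fold as lower on both arrays of pair 1, which 9.12% of all features did. Kcnk1, a weak leak channel of neurons and glia, read -1.08 and -1.28 there and -0.06 on replicate 3. Kcnk16, known from pancreatic islets, read -1.50, -0.70 and -0.21. Kcnk6 read -1.95 and -2.15 in pair 1 but 1.58 on replicate 3, so that the pairs were opposite beyond 1.5-fold. Kcnk5, an acid-sensitive channel of epithelia and immune cells, was below 0 on all arrays (-1.17, -0.33 and -0.38, mean -0.56 ± 0.25, adjusted p = 0.852 by limma). For replicates 2 and 3 that average came from 1 probe (-0.65 and -0.76), because the other was at the most frequent value, and without those spots its mean was -0.84. Kcnk7, which gives no current alone, was above 0 throughout (2.72, 0.24 and 0.54), and 2.72 was the highest Kcn gene value of replicate 1. Kcnk2, a stretch- and lipid-gated channel, read 0.63, 0.02 and -0.34. Kcnk3, Kcnk4, Kcnk12 and Kcnk13 were below 0 on replicate 1, from -2.18 for Kcnk13 to -0.21 for Kcnk4. On replicate 3 Kcnk13 was at the most frequent value, while Kcnk3, Kcnk4 and Kcnk12 read 0.20, 0.86 and 0.57. On both of these arrays 1 of the 2 Kcnk4 probes was at the most frequent value.

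The Kcnma and Kcnn group had 6 genes. They were the big-conductance calcium-activated pore Kcnma1, its sperm relative under the older symbol Kcnma3, and Kcnn1 to Kcnn4. The Kcnn genes encode calcium-activated channels of small and intermediate conductance. On replicate 1, 5 of 6 were above 0 (median 0.85), on replicate 2 it was 4 of 6 (0.37), and on replicate 3 it was 2 of 6 (-0.27). Kcnn1 and Kcnn2, which give the afterhyperpolarisation that follows a spike, were higher in pair 1 (1.33 and 0.86 for Kcnn1, 1.02 and 0.71 for Kcnn2). In pair 2 both were below 0, at -0.50 for Kcnn1 and -0.40 for Kcnn2. Both Kcnn1 probes kept these signs on each array. The 2 Kcnn2 probes had opposite signs on replicate 2 (1.55 and -0.13) and on replicate 3 (0.52 and -1.31). Kcnma1 read 0.91, 0.03 and -1.30, the last an average of -2.59 and a probe at the most frequent value, and without that spot its mean was -1.06 in place of -0.41. Kcnn4, a channel of red cells and lymphocytes, stayed near 0 (0.05, -0.41 and -0.14). Kcnn3 was high only with the dyes exchanged (-0.35, 2.03 and 0.06), and Kcnma3 was low only there (0.80, -0.92 and 0.88). The cortical neuron markers were also higher in pair 1 than in pair 2, and their part in the Kcnn values was not tested.

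For the 14 auxiliary subunits the medians were -0.53, 0 and -0.29, or -0.53, -0.30 and -0.33 over the 14, 11 and 13 genes measured. Below 0 were 11 of 14 on replicate 1, 6 of 11 measured on replicate 2 and 10 of 13 measured on replicate 3. A common sign below 0 on all arrays was found for 5 of them (9.64% of all features), and above 0 for 1 (8.7%). The potassium channel interacting proteins (Kcnip) bind Kcnd pores and carry them to the membrane. Kcnip2 was above 0 at each of its 2 probes on every array, with averages of 0.49, 0.36 and 0.27 and probe gaps of 0.07, 0.02 and 0.07. Its mean was 0.35 ± 0.22 (adjusted p = 0.852 by limma). Kcnip4 was below 0 (-1.16, -0.38 and -0.33), but its probes differed by 2.86 on replicate 2. Kcnip1 read 0.01, 0.18 and -0.49, so that the 3 interacting proteins differed in direction.

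The beta subunits Kcnab1 and Kcnab2, which bind Kcna channels, were below 0 on all arrays as gene averages. Kcnab2, with 1 probe, read -0.93, -0.30 and -0.68 (mean -0.64 ± 0.22, adjusted p = 0.852 by limma). Kcnab1 averaged -0.05, -1.30 and -0.22. Its 2 probes had opposite signs on replicate 1 (0.39 and -0.50) and on replicate 3 (-0.57 and 0.13). Kcnab3 was above 0 on replicate 2 alone (-0.42, 0.37 and -0.37). The Kcne genes encode small proteins that pair with Kcnq1 and other pores. Kcne2, found in choroid plexus and stomach, read -0.95, -0.89 and -0.18, and Kcne1l read -0.57, -1.27 and -0.26. The choroid plexus markers had medians of -0.55, -1.38 and 0.34, below 0 in pair 1 as Kcne2 was, and their part in it was not tested. Kcne4 read -3.07 and -1.51 in pair 1 and 1.75 on replicate 3, opposite beyond 1.5-fold. Kcne3 had the lowest value of any Kcn gene on replicate 1, -4.78, with the most frequent value on replicate 2 and -1.12 on replicate 3. Of the big-conductance beta subunits, Kcnmb4, the brain form, read -0.48, 0.79 and -1.38. Kcnmb1, the smooth muscle form, had a measured value on replicate 1 alone (-1.59), and Kcnmb2 read -0.44, 0.06 and -0.55. Kcne1 was above 0 on replicates 1 and 3 (1.34 and 1.56), with its 3 probes at the most frequent value on replicate 2. On replicate 3 its probes read 4.28, 0.39 and the most frequent value, so that 1.56 rests mostly on 1 probe. Kcnrg, a protein that hinders Kv assembly and is no subunit, read 0.95 on replicate 1, the most frequent value on replicate 2, and 4.28 on replicate 3, the highest gene value there, although a Kcnj14 probe read 5.79.

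Promoter sequences are shown for the named gene with the lowest p (Kcnj3), for the gene whose probes all kept 1 sign (Kcnip2) and for the several-probe leak channel below 0 on all arrays (Kcnk5). They run from 250 bases before the start to 50 after it, 5′ to 3′ on the gene's strand, from RefSeq on GRCm38.p6. Capitals mark matches, on either strand, to GGGCGG (a GC box) or CAGCTG (an E-box).
Kcnj3: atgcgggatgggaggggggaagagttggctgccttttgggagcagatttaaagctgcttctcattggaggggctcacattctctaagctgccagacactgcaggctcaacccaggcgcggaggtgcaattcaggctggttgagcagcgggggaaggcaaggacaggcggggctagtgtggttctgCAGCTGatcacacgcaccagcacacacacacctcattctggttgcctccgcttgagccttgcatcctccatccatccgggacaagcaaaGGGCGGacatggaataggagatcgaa
Kcnip2: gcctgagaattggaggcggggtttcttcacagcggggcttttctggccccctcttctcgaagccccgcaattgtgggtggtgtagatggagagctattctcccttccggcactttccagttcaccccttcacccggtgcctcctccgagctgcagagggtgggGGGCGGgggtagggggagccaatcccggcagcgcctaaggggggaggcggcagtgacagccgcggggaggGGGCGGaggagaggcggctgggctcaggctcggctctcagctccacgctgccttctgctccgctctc
Kcnk5: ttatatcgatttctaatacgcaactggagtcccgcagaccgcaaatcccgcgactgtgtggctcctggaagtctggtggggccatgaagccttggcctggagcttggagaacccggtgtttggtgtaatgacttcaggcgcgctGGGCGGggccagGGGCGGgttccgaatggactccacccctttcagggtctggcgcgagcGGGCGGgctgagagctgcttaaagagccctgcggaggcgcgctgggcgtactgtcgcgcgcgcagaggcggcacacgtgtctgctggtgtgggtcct
The Kcnj3 sequence is chr2:55435720-55436019 on the plus strand, with 1 GC box and 1 E-box. That of Kcnip2 is chr19:45816014-45816313 on the minus strand, with 2 GC boxes. That of Kcnk5 is chr14:20181733-20182032 on the minus strand, with 3 GC boxes. The table held promoters for 58 of the 75 Kcn genes, 80 sequences in all because some genes have several starts. Their median GC content was 57.7%, against 52.7% over all 32851 promoters. A GC box match was in 38 of 80 Kcn promoters (47.5%, against 35.7%) and an E-box match in 22 (27.5%, against 16.3%). TATAAA was in 4 (5%, against 13.6%) and the cyclic AMP element TGACGTCA in 0 (against 1.79%). GC boxes stood in the promoters shown of genes above 0 (Kcnj3 and Kcnip2) and below 0 (Kcnk5). Of promoters examined but not shown, that of Kcnh7, above 0, had 4 GC boxes. The 1 examined of 2 Kcnip4 starts, a gene below 0, had 0. A match is a description of the letters, not a site.

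The dye-exchanged arrays of the same RNAs agreed only in part. Over the 75 Kcn genes replicates 1 and 2 had a Pearson r of 0.26 and a Spearman rho of 0.35, against 0.24 and 0.21 over all features, across genes that share these RNAs and are not independent. Of 64 Kcn genes measured on both, 44 had the same sign (68.75%, against 57.9% of all features). The median absolute gap between these arrays was 0.80 log2 units for Kcn genes, against 0.65 for all features, which is above the 0.58 of a 1.5-fold change. Between pair 1 and pair 2 the Pearson r was -0.07 and the Spearman rho -0.06 (-0.07 and -0.05 over all features). Opposite beyond 1.5-fold in the pairs were 3 of the 75 Kcn genes (Kcna1, Kcne4 and Kcnk6) and 1220 of all 29899 features, which is nearly the same share.

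**Figure D3:**
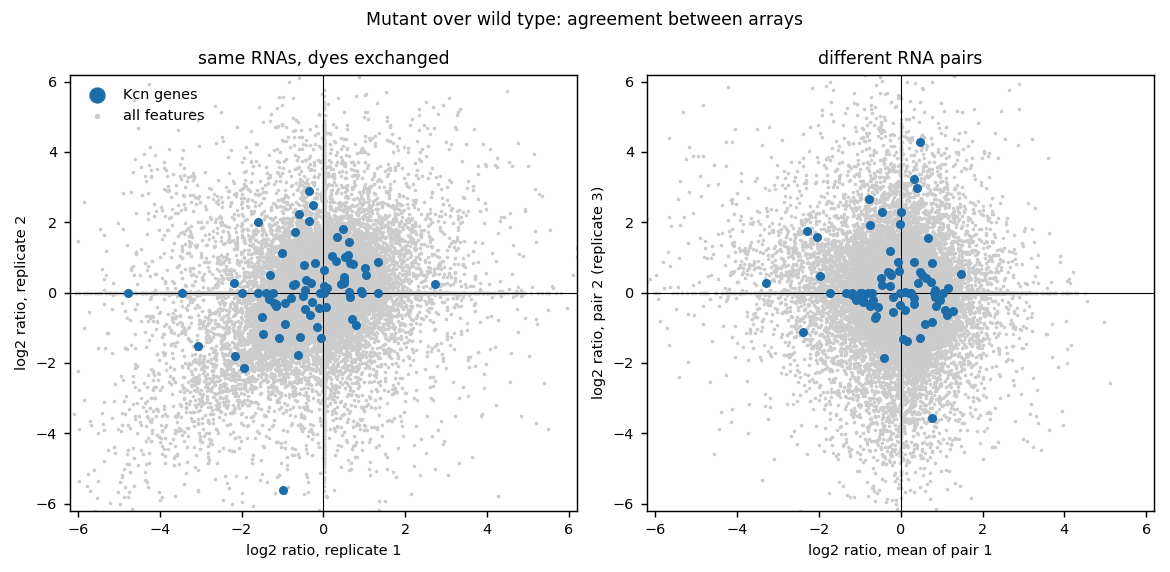
Log2 ratios (mutant over wild type) of Kcn genes (blue) and all features (grey), with replicate 2 against replicate 1 (left) and replicate 3 against the mean of pair 1 (right). The blue points lean along the diagonal on the left (r = 0.26) and show no trend on the right (r = -0.07); 103 features on the left and 52 on the right, none of them Kcn genes, lie outside the axes.

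Probes of the same gene often differed. Of 23 Kcn genes with exactly 2 probes, both probes were measured and had the same sign for 12 of 18 on replicate 1 (66.7%, against 60.2% of all genes with 2 probes). On replicate 2 it was 10 of 19 (52.6%, against 56.2%) and on replicate 3 it was 6 of 14 (42.9%, against 50.6%). Their median gaps were 0.71, 1.38 and 1.05 log2 units. Over all 27 Kcn genes with several probes, 3 had every probe measured and of a common sign within each array: Kcna6, Kcnip2 and Kcnn1. A gene with any probe at the most frequent value was not counted, so that the others include genes with unmeasured spots. The share over all genes with several probes was not computed. Several extreme values recurred on other probes: the 4.28 of Kcnrg on replicate 3 was also the value of a Kcne1 probe and stood on 8 probes in all. The -3.46 of Kcng3 on replicate 1 likewise stood on 8 probes, and the 4.76 of a Kcnj15 probe on replicate 2 on 6. The files do not say how such repeats arise.

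**Figure D4:**
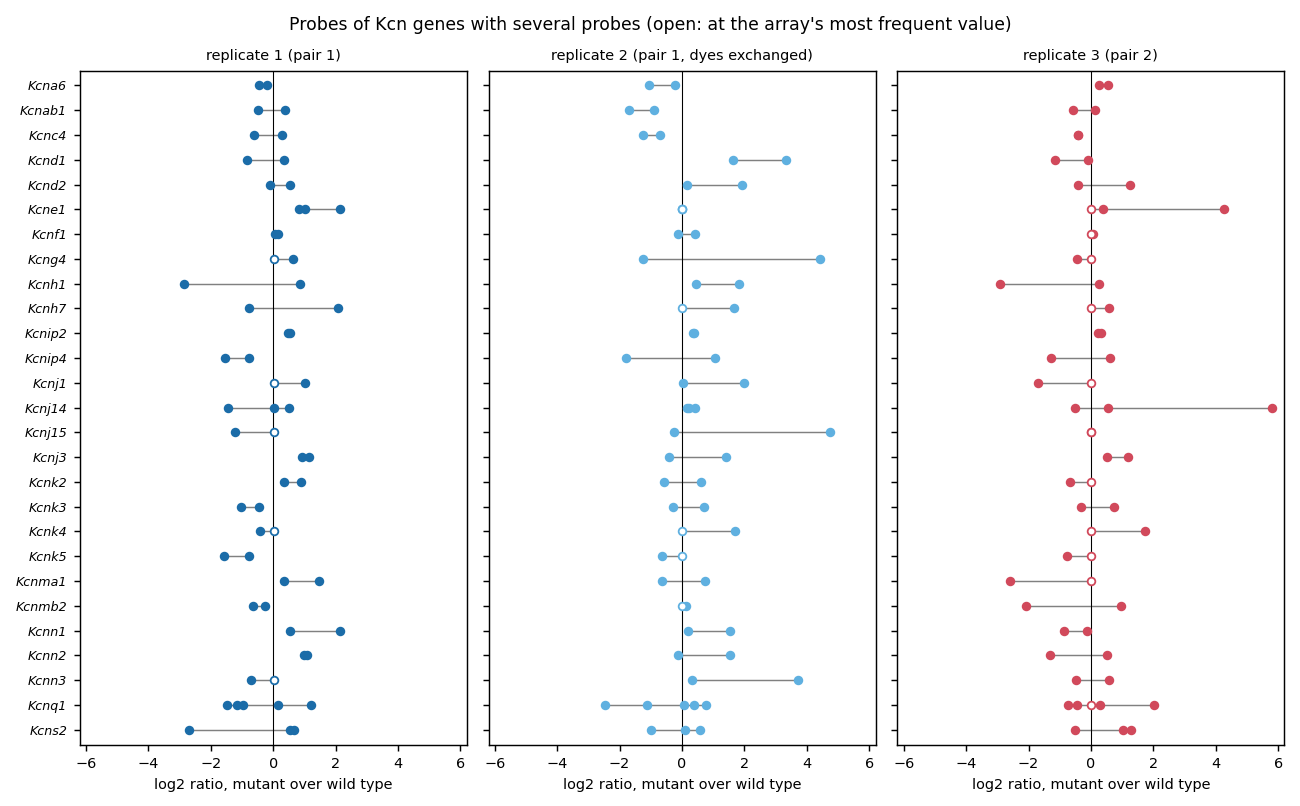
Log2 ratio (mutant over wild type) of every probe of the 27 Kcn genes with several probes, by array, with a line joining probes of a gene and open points at the array's most frequent value. The Kcnip2 probes lie on top of each other on each array, whereas Kcng4, Kcnj15 and Kcnn3 on replicate 2 and Kcne1 and Kcnj14 on replicate 3 have probes more than 3 log2 units apart.

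Other genes of excitability and ion transport came from 6 lists, with 72 of 94 genes measured. By limma 0 of the 72 passed an adjusted p of 0.05. A common sign on all arrays was found for 9 above 0 (8.7% of all features) and 13 below 0 (9.64%). In all 4 passed 1.5-fold on all arrays, each as lower (1.78% of all features): Vapb, Slc12a3, Cacng1 and Cacnb2. Among the Kv partner proteins, Vapb, a membrane-contact protein, read -1.06, -0.92 and -0.95, whereas Lgi1, a secreted partner of Kcna channels, read 1.14, 0.71 and 0.18. Cntnap2, which gathers Kcna channels on axons, read 0.42, 0.27 and 0.06. Both axonal partners were thus above 0 while Kcna1 itself differed between the pairs. Cacng1, the calcium channel subunit of skeletal muscle, read -3.95, -4.60 and -2.34, and Cacnb2, a calcium channel beta subunit of heart and brain, read -1.66, -0.74 and -1.23. Skeletal muscle markers were below 0 in pair 1 for 14 of 14 genes and on replicate 3 for 5, and their part in the Cacng1 values was not tested. In the list of potassium pumps and cation-chloride cotransporters, Slc12a3, the kidney carrier of sodium and chloride, which moves no potassium, read -1.97, -1.36 and -0.99, and Slc12a9 read 0.51, 0.96 and 0.42. None of 8 measured cyclic nucleotide-gated and HCN genes, and only Scn1a (-0.37, -0.93 and -3.24) and Scn3b (-0.59, -0.14 and -0.40) of 9 sodium channel genes, had a common sign.

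Read by array, the Kcn values were limited by n = 2 pairs and by 3 arrays without spot intensities. Leaving out replicate 1, 2 or 3 moved the count of Kcn genes past 1.5-fold on all remaining arrays to 2, 9 and 15, against 0 with all arrays. Over all features 7.87% passed on replicates 2 and 3, 9.72% on replicates 1 and 3 and 14.8% on replicates 1 and 2.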

How the data were processed

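The deposited values are log2 ratios of both channels of each 2-colour array. The unit was read from the values, which lie on both sides of 0, and their scaling and centring by the authors is not stated in the labels or the file. Per the labels' protocols, total RNA came from an RNeasy mini kit and was labelled by Genisphere 3DNA chemistry. Per the labels, mutant RNA was in Cy5 and wild-type RNA in Cy3 on replicates 1 and 3, and the reverse on replicate 2. Without intensities dim spots could not be filtered, and precision is limited by having 3 arrays.

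Platform gene symbols named 30457 of 38880 probes. A symbol's probes were averaged, and each of the 8423 unnamed probes was kept as a feature, 29899 in all. Of the 75 Kcn symbols 74 are current in RefSeq and 1 is a synonym there. Replicates 1 and 2 were averaged to 1 pair and tested with replicate 3 in limma 3.58.1 under R 4.3.3 (lmFit, eBayes, Benjamini-Hochberg over all features, threshold 0.05, total degrees of freedom 2.079). The script was run on simulated data, where altered features had to be recovered only at a spread between pairs far below the real one. That run checked the code and does not show which changes limma could detect at the real spread. Figures used Python 3.11.15 and matplotlib 3.10.9.

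Named genes were the 6 highest and 6 lowest of a common sign, ranked by the array nearest to 0, and the 8 highest and 8 lowest past 1.5-fold in pair 1, where 6 were higher. They also included the 3 highest and 3 lowest on replicate 3, and 20 chosen by role, of which 16 were measured. In all 38 were named by rule, and other Kcn genes named in the text were chosen after their values were seen. Members, lists and rules were chosen with earlier results of these data known. Alternatives covered probe averaging, centring, scaling, spots at the most frequent value, each array left out, fold thresholds and updated symbols. They also covered a dye term, the 3 arrays as independent replicates, a plain t statistic and the variance model.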

Additional observations from a re-analysis of the deposited data

How the results depend on the processing

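The count of Kcn genes by adjusted p, from limma or a plain t statistic, stayed 0 under all 12 alternatives that could be fitted. The lowest adjusted p was 0.685 by limma, and at most 6 genes had an unadjusted p under 0.05. Both extremes came from the dye term fit. That fit, the 3 arrays as independent replicates and the plain one-sample t statistic treated replicates 1 and 2 as independent. These arrays held the same RNAs, so that such fits overstate the replication. The count past 1.5-fold on all arrays (0) became 1 with every probe as its own feature, 2 with spots at the most frequent value left out, 2 at a threshold of 1.3-fold, and 2 to 15 with an array left out. The count in pair 1 (15) became 5 at 2-fold, all lower in the mutant, and 15 to 44 with an array left out. The count in the related lists (4) became 1 at 2-fold and 8 to 14 with an array left out. In each leave-out case fewer arrays had to pass. The median Kcn log2 ratio over the pairs (-0.00675) became 0.0225 with recentred arrays, 0.0866 when spots at the most frequent value were dropped, 0.0322 by updated symbols and -0.138 to 0.0815 with an array left out. The correlation between replicates 1 and 2 (0.26) became 0.10 with single probes. That between the pairs (-0.07) became 0.013 when spots at the most frequent value were dropped and -0.165 to 0.0601 with an array left out. The causes were not tested. Of 263 recomputed means of named genes 16 turned sign, 8 of them without replicate 3. The 38 by probe median could not turn, as no named gene has more than 2 probes. Of 150 recomputed subfamily medians 7 turned. Dividing an array by its spread could not turn a subfamily median, and medians of exactly 0 were counted as not turned. Leaving out an array was not among the settings for subfamilies. The random block for RNA pair could not be fitted with 3 arrays, and limma without replicate 3 has no residual degrees of freedom. The test is itself paired, since each array holds a mutant and a wild-type sample, so that no further replicate block applied.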

Other observations

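Some Kcn genes lie beside each other in the mouse genome. Of the 75 Kcn genes 17 had another Kcn gene within 200 kb in the RefSeq annotation, in 8 groups. Kcnk5 and Kcnk16, neighbours on chromosome 14, were both below 0 on all arrays (-1.17, -0.33 and -0.38 for Kcnk5, -1.50, -0.70 and -0.21 for Kcnk16). Kcne1 and Kcne2, neighbours on chromosome 16, differed: Kcne2 was below 0 throughout (-0.95, -0.89 and -0.18) while Kcne1 was above 0 on replicates 1 and 3 (1.34 and 1.56). The 1.56 rests mostly on 1 probe at 4.28. Kcna1, Kcna5 and Kcna6 on chromosome 6 had 3 different orders of sign. On chromosome 1, Kcnj9 was at 2.96 on replicate 3 and Kcnj10 at -0.52. These are values only, and no test of neighbours was made.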
